A study of Mus musculus with 48 samples.

Results

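*Gata4*, *Gata6*, *Sox17*, *Sox7*, *Foxa2*, *Pdgfra* and *Dab2* are genes that the primitive endoderm (PrE) of the mouse blastocyst expresses, and they were followed here through reprogramming of fibroblasts to induced pluripotent stem cells (iPSCs). The 7 genes were chosen by name from the 24264 transcripts of the count table. The study sequenced 48 libraries of 20 conditions by STRT, which reads the 5′ ends of transcripts, to compare the reprogramming routes of the MKOS and OKMS cassettes. The letters give the order of *Myc*, *Klf4*, *Oct4* and *Sox2* on the doxycycline-inducible transcript. They sit, with a CAG-driven rtTA, in an intron of *Sp3* in TNG embryonic stem cells (ESCs), which carry GFP at *Nanog*. Transgenic mouse embryonic fibroblasts (MEFs) came from chimeric embryos, so that host cells could be among them, and they were diluted with WT MEFs for reprogramming. Cells were sorted from cultures with doxycycline and vitamin C on day 10 by the design text, whereas the culture protocol also names day 15.

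The sorted populations had 3 libraries each. They were E-CAD+ 2NG-, E-CAD+ 3NG- and 3NG+ cells of both cassettes, and E-CAD- 2NG- and E-CAD- 3NG- cells of OKMS only. Gate 2 holds cells low in CD44 and ICAM1, gate 3 cells low in CD44 and high in ICAM1, NG- and NG+ are cells without and with *Nanog*-GFP, and E-CAD is E-cadherin. The other conditions had 2 libraries each. The MEFs were WT or carried MKOS or OKMS. The ESCs were E14, TNG without a cassette, and the TNG MKOS and TNG OKMS lines. The iPSCs of each cassette were grown without doxycycline (-dox) or in 2i medium, which holds inhibitors of MEK and GSK3, and D6 is a further iPSC line with a *piggyBac* MKOS integration. The iPSCs are established clones. No source used here says that replicates were independent cultures, so p-values measure only the spread between these libraries.

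The inner cell mass of the blastocyst divides into *Nanog*-positive epiblast and *Gata6*-positive PrE, and FGF4 from the epiblast drives the choice through FGF receptors and ERK. *Gata6* is the first of these factors to act. *Gata4*, *Sox17* and *Sox7* follow it. *Pdgfra*, a receptor for PDGF, and *Dab2*, an adaptor for endocytosis by megalin and cubilin, are further markers of PrE. *Foxa2* is a pioneer factor of the visceral endoderm that forms from PrE. None of the 7 is exclusive to PrE. *Pdgfra* is a classical fibroblast receptor, *Foxa2* and *Sox17* are factors of definitive endoderm, *Sox7* and *Sox17* act in endothelium, and the GATA factors act in heart and gut.

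Between 1429717 and 14174725 reads per library fell on transcripts, with a median of 6243254. Levels are given as CPM, the reads of a transcript per 1000000 reads on transcripts, and 3 reads corresponded to 0.212 to 2.1 CPM. This floor covers counting error only, because PCR copies were not removed. In such bulk RNA, fewer cells with a transcript and less of it per cell cannot be told apart. The 7 genes received few reads outside MEFs. Over all libraries *Pdgfra* had 7141 reads, *Dab2* 4234, *Gata6* 1193, *Gata4* 879, *Foxa2* 374, *Sox17* 268 and *Sox7* 64. All 7 passed the filter on low counts that left 15630 genes for the tests, and at most 0.574% of a gene's reads had more than 1 position. A gene without a read in both groups compared has no usable test. This held for 0 to 2 of the 7 genes in each comparison of a pair of conditions, always *Foxa2*, *Sox17* or *Sox7*, and DESeq2 gave no FDR to 1 to 5 of the 7. Counts of 0 called genes below do not speak of these.

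Promoter windows of 300 bases around transcript starts were taken for 3 of the 7 genes from RefSeq (GRCm38.p6). Genes of this build held the deposited positions of 99.3% of 20698 shared symbols to within 1000 bases. These windows are shown because STRT reads begin at transcript starts and because GATA, SOX and FOX factors are themselves among the 7. Of the windows of *Foxa2* the one with a motif match is given, and the windows of *Pdgfra* and *Dab2* hold the positions deposited for these genes. Capitals mark matches to GATAA or its reverse complement TTATC.
*Foxa2*, chr2:148045415-148045714, minus strand: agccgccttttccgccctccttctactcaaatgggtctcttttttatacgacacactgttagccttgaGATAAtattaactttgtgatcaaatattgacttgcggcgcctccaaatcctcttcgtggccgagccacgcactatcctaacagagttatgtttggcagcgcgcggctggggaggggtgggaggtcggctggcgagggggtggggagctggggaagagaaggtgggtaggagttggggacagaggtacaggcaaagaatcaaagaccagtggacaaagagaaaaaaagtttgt
*Pdgfra*, chr5:75152001-75152300, plus strand: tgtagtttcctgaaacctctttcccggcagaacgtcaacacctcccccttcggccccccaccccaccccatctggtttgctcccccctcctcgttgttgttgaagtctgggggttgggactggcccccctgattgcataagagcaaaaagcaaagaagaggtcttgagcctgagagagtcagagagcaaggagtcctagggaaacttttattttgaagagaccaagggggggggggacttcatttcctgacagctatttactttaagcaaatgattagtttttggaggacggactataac
*Dab2*, chr15:6299539-6299838, plus strand: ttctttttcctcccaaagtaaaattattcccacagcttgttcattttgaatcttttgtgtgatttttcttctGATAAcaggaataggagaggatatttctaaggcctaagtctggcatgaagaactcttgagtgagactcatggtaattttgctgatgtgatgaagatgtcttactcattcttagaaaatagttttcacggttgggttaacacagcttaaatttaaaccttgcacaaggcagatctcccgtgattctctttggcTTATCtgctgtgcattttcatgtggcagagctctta

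The *Dab2* window shown held 2 GATAA matches, that of *Foxa2* 1 and that of *Pdgfra* 0. Over all 6 windows of these genes, 2 held a match, and 25.4% of 32851 windows in the table did. No window was found for *Gata4*, *Sox17* and *Sox7*, and *Gata6* was left out of the search. The motif counts therefore do not speak of *Gata4*, *Sox17*, *Sox7* or *Gata6*. ACAAT, the core of a SOX site (either strand, 31% of windows), and TGTTTAC, a forkhead site (either strand, 3.65%), matched none of the 6 windows. The motifs do not overlap one another here, and a match describes the letters only. The genes lie apart in the genome, with *Sox17* on chromosome 1, *Foxa2* on 2, *Pdgfra* on 5, *Gata4* and *Sox7* on 14, *Dab2* on 15 and *Gata6* on 18.

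The 7 genes did not share a pattern. *Pdgfra*, *Dab2* and *Gata6* were highest in MEFs, and *Foxa2* and *Sox17* were found mostly in OKMS E-CAD+ cells without *Nanog*-GFP. *Gata4* was low in most conditions, and *Sox7* had at most 2.28 CPM in any library. Over the 20 condition means of log2(CPM + 1), Pearson's r was 0.88 between *Gata6* and *Pdgfra*, 0.85 between *Pdgfra* and *Dab2*, 0.81 between *Gata6* and *Dab2*, and 0.85 between *Foxa2* and *Sox17*. It was 0.04 between *Gata6* and *Foxa2*. These values describe conditions that share lines and libraries of unequal depth, and they carry no test. The genes are therefore spoken of by name below.

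**Figure D1:**
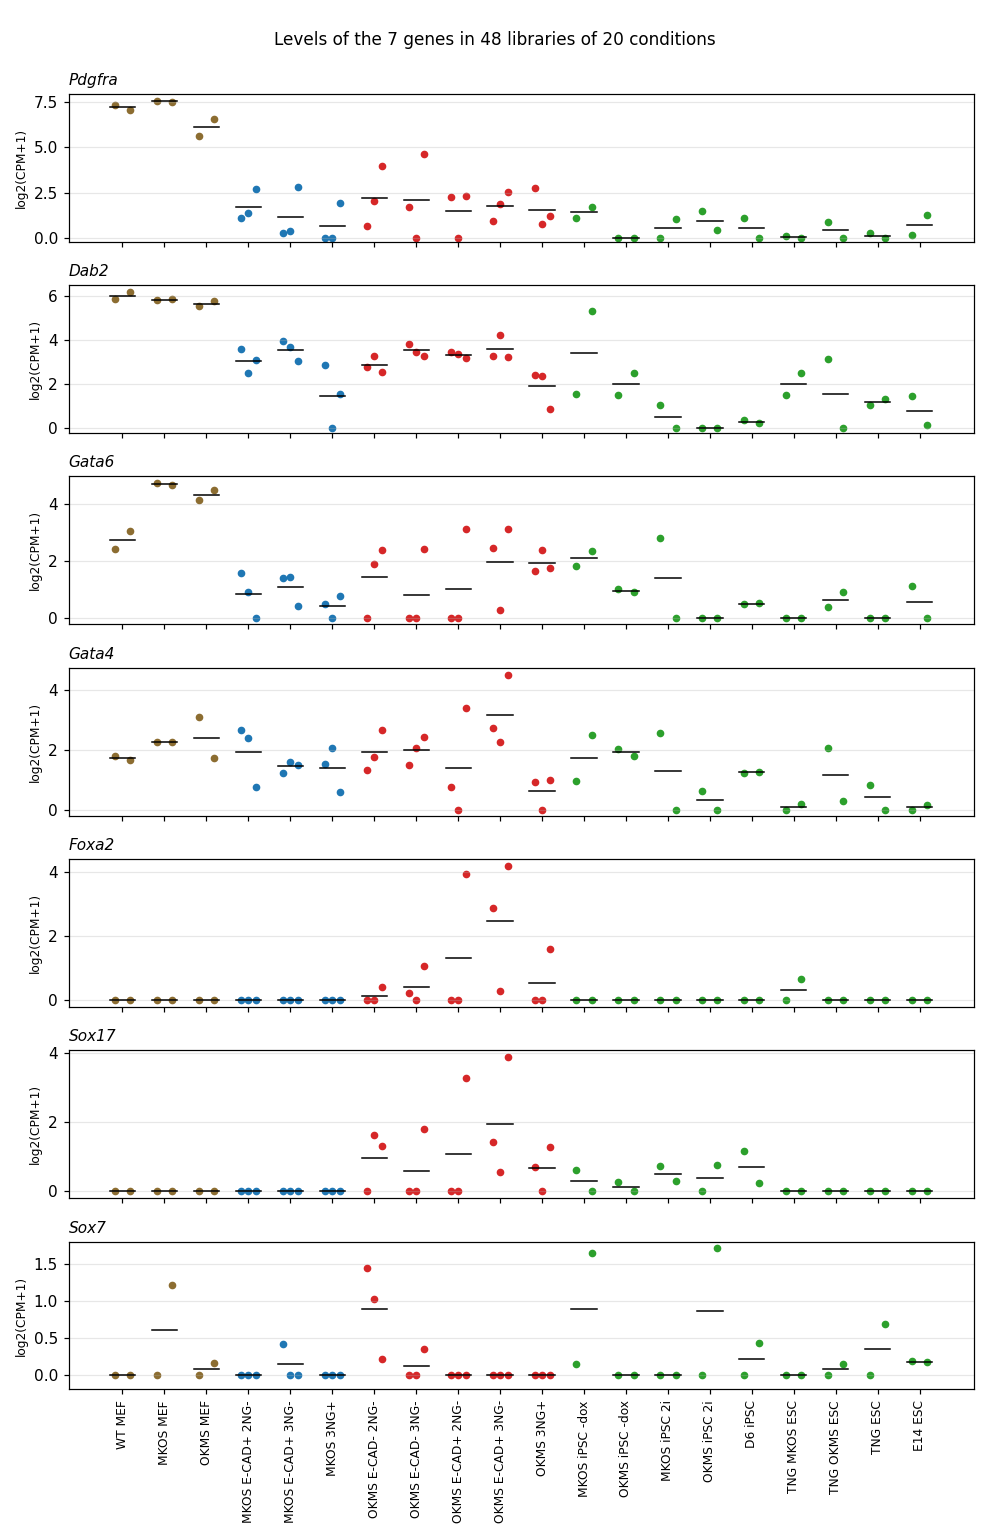
Level of each of the 7 genes as log2(CPM + 1), 1 panel a gene, in the 48 libraries (points) of the 20 conditions, with a line at each condition's mean of these values. *Pdgfra*, *Dab2* and *Gata6* peak in the MEFs, with *Pdgfra* at up to 187 CPM, while *Foxa2* and *Sox17* peak in OKMS E-CAD+ 3NG- replicate 3 at 17.2 and 13.7 CPM.

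*Pdgfra* was the most abundant of the 7 genes by reads, and MEFs held 6548 of its 7141 reads. It was read at 187 and 179 CPM in the MKOS MEFs, at 161 and 130 CPM in the WT MEFs, and at 48.6 and 92.2 CPM in the OKMS MEFs. The ranges of these MEF conditions did not overlap one another, and the highest of the 42 other libraries had 23.7 CPM. *Dab2* was at 55.8 and 70.5 CPM in WT, 55 and 56 CPM in MKOS and 45.3 and 52.2 CPM in OKMS MEFs, and the highest library outside MEFs had 38.0 CPM. *Gata6* was at 25.3 and 24.1 CPM in MKOS MEFs and at 16.7 and 21.3 CPM in OKMS MEFs. It was lower in WT MEFs, at 4.38 and 7.3 CPM, which overlapped the 4.55, 0.238 and 7.77 CPM of OKMS E-CAD+ 3NG- cells. Of the related receptors and adaptors, *Pdgfrb* ranged from 36.4 to 59.6 CPM in the 6 MEF libraries, while *Dab1* had at most 0.151 CPM there.

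To ask how the genes changed between fibroblasts and the first sorted population of each route, MEFs were compared with 2NG- cells. In MKOS, 3 of the 7 genes fell and 0 rose, when 12.0% of all genes were called lower and 15.0% higher (edgeR FDR at most 0.05). *Pdgfra* dropped from 183 ± 5.67 CPM (SD, n = 2) to 2.77 CPM in E-CAD+ 2NG- cells, a log2 change of -6.10 ± 1.21 (SE, edgeR FDR = 0.000155). Its 3 sorted libraries all lay below both MEF libraries. *Dab2* changed by -2.86 ± 0.87 on the log2 scale (edgeR FDR = 0.0123), from 55.5 to 7.78 CPM, and *Gata6* by -4.64 ± 1.60 (edgeR FDR = 0.0283), from 24.7 to 0.975 CPM. *Gata4*, at 3.78 and 3.46 CPM, gave a log2 change of -0.16 ± 1.32. The *Gata6* call was lost without either MKOS MEF library and without E-CAD+ 2NG- replicate 2 or 3, with an FDR of 0.0572 to 0.101, and the *Dab2* call was lost without E-CAD+ 2NG- replicate 2 (FDR = 0.0590). The median log2 change of the 7 genes was -2.86, or -0.79 with a group without reads set to the 3-read floor, beside 0 for all genes.

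In OKMS, 2 of the 7 genes fell from MEFs to E-CAD- 2NG- cells, when 10.1% of all genes were called lower and 11.7% higher. *Pdgfra* changed by -3.54 ± 1.10 on the log2 scale (edgeR FDR = 0.0170), from 70.4 to 6.06 CPM, and *Dab2* by -2.97 ± 0.89 (FDR = 0.0135), from 48.8 to 6.45 CPM. The *Pdgfra* call was lost without MEF replicate 2 (FDR = 0.0956), without E-CAD- 2NG- replicate 1 (0.0823) or 2 (0.0697), and by DESeq2's Wald test (0.114). The *Dab2* call was lost without MEF replicate 2 (0.0502) or E-CAD- 2NG- replicate 3 (0.0578). Toward OKMS E-CAD+ 2NG- cells the same pair of genes was called lower, when 13.5% of all genes were called lower and 15.7% higher. *Pdgfra* changed by -4.45 ± 1.15 (FDR = 0.00276), to 2.54 CPM, and kept its call without any 1 library, whereas *Dab2*, at -2.30 ± 0.87 (FDR = 0.0408) and 9.14 CPM, lost it without each of the 5 libraries in turn (0.0822 to 0.109). *Gata6* gave log2 changes of -3.09 ± 1.53 and -2.58 ± 1.48 that were not called (FDR = 0.149 and 0.191). The median log2 change of the 7 was -0.77 toward E-CAD- cells and -2.10 toward E-CAD+ cells, or -0.33 in the latter with groups without reads at the floor.

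**Figure D2:**
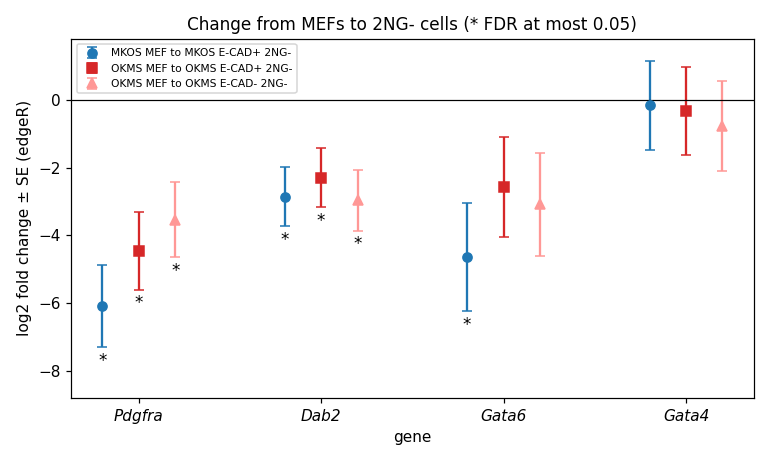
Log2 change of *Pdgfra*, *Dab2*, *Gata6* and *Gata4* from MEFs to 2NG- cells in the 3 comparisons, with standard errors from edgeR as bars and a star on changes called at an FDR of at most 0.05. *Pdgfra* and *Dab2* have a star in each comparison, *Gata6* in MKOS, and *Gata4* in none.

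The difference between the MKOS and OKMS changes from MEF to E-CAD+ 2NG- cells could be estimated for 4 of the 7 genes only, since *Sox17*, *Sox7* and *Foxa2* had groups without reads. Of these 4, 0 were called by edgeR, with 0 at an unadjusted p under 0.05 and 0 by DESeq2, when 1.35% of all genes were called. Genes of fibroblasts went down in the same comparisons. Of a list of 13 fibroblast genes, 12 were called lower in MKOS, 11 toward OKMS E-CAD- and 12 toward OKMS E-CAD+ cells, with medians of -3.08, -2.48 and -4.40. *Prrx1*, a mesenchymal homeobox factor, changed by -4.27 ± 0.68, -3.85 ± 0.67 and -5.76 ± 0.74 on the log2 scale, and *Thy1*, a fibroblast surface protein, by -4.07 ± 0.67, -3.96 ± 0.67 and -5.60 ± 0.72. The summed level of the list was 3920 to 6580 CPM in MEFs, 207 to 1560 CPM in sorted cells and 102 to 403 CPM in iPSCs and ESCs. How much of the fall of *Pdgfra*, *Dab2* and *Gata6* went with the share of fibroblasts was not tested.

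In E-CAD- cells, which held 853 to 1210 CPM of the fibroblast list, *Pdgfra* reached 14.5 CPM in 2NG- replicate 3 and 23.7 CPM in 3NG- replicate 3, against at most 4.71 CPM in the 6 OKMS E-CAD+ NG- libraries. The other E-CAD- libraries were between 0 and 3.09 CPM, so the groups overlapped. Sorted MKOS cells, which held 280 to 1560 CPM of the fibroblast list, had *Pdgfra* at 0 to 5.94 CPM. The means of *Dab2* in the sorted NG- populations ran from 6.45 CPM in OKMS E-CAD- 2NG- to 11.7 ± 5.34 CPM (SD, n = 3) in OKMS E-CAD+ 3NG- cells, and neighbors in this order overlapped.

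*Foxa2* and *Sox17* were read in other cells than the MEF genes. *Foxa2* had levels of 6.34, 0.238 and 17.2 CPM among OKMS E-CAD+ 3NG- replicates, from 71, 1 and 73 reads. Its levels among OKMS E-CAD+ 2NG- replicates were 0, 0 and 14.4 CPM, where replicate 3 had 204 reads. It was at 0 in all 9 sorted MKOS libraries, all 6 MEF libraries and 17 of 18 iPSC and ESC libraries, and reached 2.0 CPM in 1 OKMS 3NG+ library. In OKMS E-CAD- cells it was at 0, 0 and 0.326 CPM in 2NG- and 0.165, 0 and 1.09 CPM in 3NG-. *Sox17* was at 1.7, 0.476 and 13.7 CPM in OKMS E-CAD+ 3NG- cells and at 0, 0 and 8.61 CPM in E-CAD+ 2NG- cells. In OKMS E-CAD- cells it was at 0, 2.06 and 1.47 CPM in 2NG- and 0, 0 and 2.45 CPM in 3NG-. It was at 0 in the MEFs, the sorted MKOS cells and the 8 ESC libraries.

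Replicate 3 of the OKMS E-CAD+ populations carried most reads of *Foxa2* and *Sox17*. These 2 libraries held 74.1% of all *Foxa2* reads, 67.2% of *Sox17*, 26.2% of *Gata4* and 12% of *Gata6*, but 3.59% of *Dab2*, 1.05% of *Pdgfra* and 0 of *Sox7* reads. They are among 7 sorted libraries that are not part of the averages in the authors' supplementary expression table, and the sources used here do not say why. *Gata4*, the GATA factor of visceral and parietal endoderm, was at 5.62, 3.81 and 22.1 CPM in OKMS E-CAD+ 3NG- and at 0.682, 0 and 9.59 CPM in E-CAD+ 2NG- cells. *Gata6* was at 0, 0 and 7.76 CPM in OKMS E-CAD+ 2NG- cells, again with replicate 3 highest. *Sox7*, which often accompanies *Sox17* in endoderm, had no read in any of the 9 OKMS E-CAD+ and 3NG+ libraries.

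Cassettes were compared within each gate to ask whether the routes differed. In 2NG- cells 0 of 7 genes were called by edgeR, when 5.07% of all genes were called, with 2 at an unadjusted p under 0.05 and 0 by DESeq2. Against the mean floor of the MKOS libraries, the mean of *Foxa2* was at least 12.5-fold higher in OKMS (FDR = 0.0918) and that of *Sox17* at least 7.45-fold higher (FDR = 0.107). Both groups overlapped because OKMS replicates 1 and 2 had no read. Folds given below with the words at least are such ratios of a mean to a floor, and single libraries can lie under them. In 3NG- cells 0 of 7 were called, when 2.17% of all genes were, with 3 at an unadjusted p under 0.05 and 0 by DESeq2. The lowest OKMS values of *Foxa2* and *Sox17*, 0.238 and 0.476 CPM in replicate 2, were under the 0.714 CPM of 3 reads there. *Foxa2* was at least 20.7-fold higher in OKMS (FDR = 0.111), *Sox17* at least 13.8-fold higher (FDR = 0.117), and *Gata4* gave a log2 difference, MKOS minus OKMS, of -2.73 ± 1.25 (FDR = 0.291). In 3NG+ cells 0 of 7 were called by edgeR or DESeq2, with 1 at an unadjusted p under 0.05 (*Sox17*, FDR = 0.397), when 0.685% of all genes were called.

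From OKMS MEFs, which had no read of either gene, the mean of *Foxa2* was at least 10.7-fold higher in E-CAD+ 2NG- cells (FDR = 0.0717). That of *Sox17* was at least 6.37-fold higher (FDR = 0.0834), and neither gene was called. Both means rest on replicate 3, since the other replicates had no read. Between OKMS E-CAD- and E-CAD+ cells 0 of 7 genes were called by edgeR or DESeq2 in the 2NG- gate, with 2 at an unadjusted p under 0.05 (*Foxa2* and *Sox7*), and 0 in the 3NG- gate, with 0 at an unadjusted p under 0.05, when 2.38% and 1.75% of all genes were called. The *Foxa2* difference in the 2NG- gate was a log2 value of 5.34 ± 2.40 (FDR = 0.294), and it became -2.86 without OKMS E-CAD+ 2NG- replicate 3.

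Genes of mesendoderm and definitive endoderm were high in the same libraries. Of a list of 7 such genes, 6 had their highest level of all 48 libraries in the 2 OKMS E-CAD+ replicate 3 libraries, beside 3 of the 7 PrE genes (*Gata4*, *Sox17* and *Foxa2*). The share of all genes that peaked in these 2 libraries was not counted. OKMS E-CAD+ 2NG- replicate 3 was also the deepest of the libraries, with 14174725 reads on transcripts. *Cer1*, a secreted Nodal antagonist of anterior visceral endoderm and definitive endoderm, was at 0, 0 and 196 CPM in OKMS E-CAD+ 2NG- and at 34.4, 21.7 and 128 CPM in 3NG- cells. It had no read in the sorted MKOS cells, the iPSCs and the ESCs. *Eomes*, a T-box factor of mesendoderm, was at 3.41, 2.26 and 54.6 CPM in 2NG- and 13, 9.05 and 84.0 CPM in 3NG- cells. The T-box factor *T* (brachyury), which marks the primitive streak, was at 0, 0.322 and 28.4 CPM and at 4.64, 10.2 and 63.6 CPM.

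Between cassettes, 2 genes of this list were called higher in OKMS in 2NG- cells, *Cer1* (mean at least 170-fold, edgeR FDR = 0.0154) and *Eomes* (log2 difference, MKOS minus OKMS, of -6.99 ± 1.81, FDR = 0.0161), and *Cer1* was called in 3NG- cells (mean at least 160-fold, FDR = 0.0292). Of all genes, 5.07% were called in 2NG- and 2.17% in 3NG- cells. The median difference of the list was -6.13 and -6.12, or -3.90 and -4.02 with groups without reads at the floor. Without the 7 libraries named above, 0 and 1 were called. From OKMS MEFs 3 of the list were called higher in E-CAD+ 2NG- cells (*Cer1*, *Eomes* and *T*), when 15.7% of all genes were. In E-CAD- 2NG- cells 1 was called higher (*Eomes*), near the 11.7% of all genes. Without those libraries the counts were 1 and 0. The summed level of the list was 307 and 298 CPM in the 2 replicate 3 libraries, or 110 and 170 CPM without *Cer1*. It was 3.75 and 2.58 CPM in OKMS E-CAD+ 2NG- replicates 1 and 2, where *Foxa2* and *Sox17* had no read, and 60.3 and 47.4 CPM in 3NG- replicates 1 and 2. The 6 OKMS E-CAD- libraries held 0.19 to 65.1 CPM of the list, so their highest sum lay above these. Sorted MKOS cells held at most 16.4 CPM, and the 3NG+ cells of both cassettes 5.6 to 43.2 CPM.

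**Figure D3:**
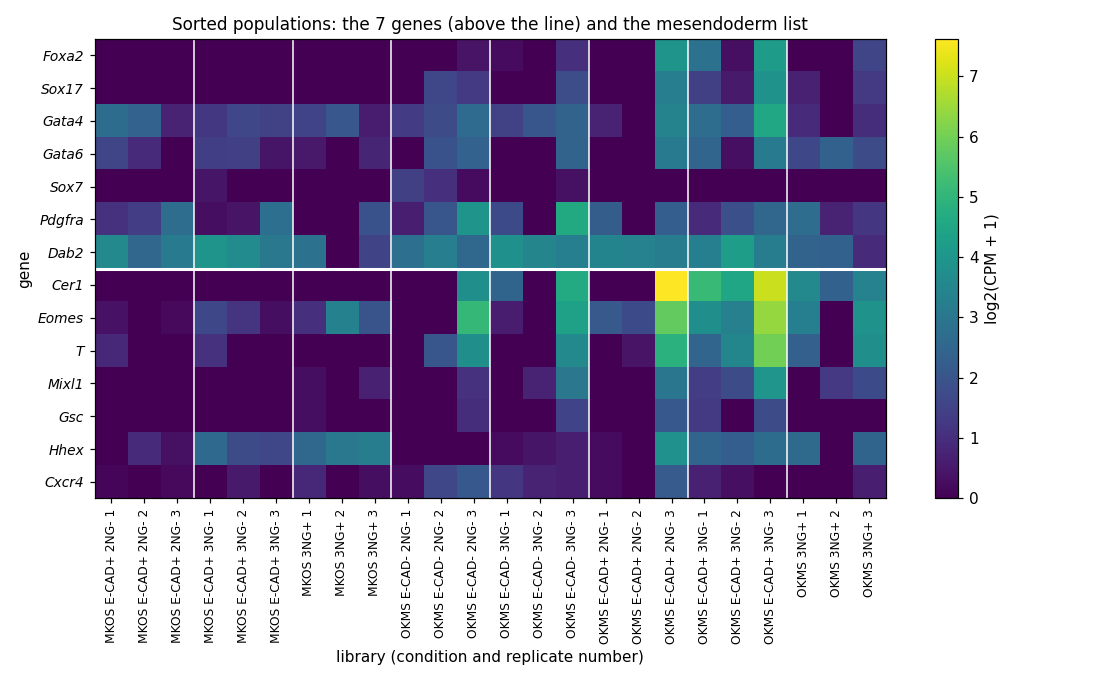
Heat map of the 7 PrE genes (rows above the line) and the 7 mesendoderm and definitive endoderm genes (rows below) in the sorted libraries (columns, vertical lines between conditions), colored by log2(CPM + 1). *Foxa2*, *Sox17*, *Gata4*, *Cer1*, *Eomes* and *T* are brightest in the 2 OKMS E-CAD+ replicate 3 libraries, where *Sox7* has no read.

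Further endoderm lists, which share *Hhex* and *Cer1* with the mesendoderm list, were split. Of 10 further PrE transcription factors, 5 (*Foxa1*, *Foxa3*, *Foxq1*, *Hhex* and *Lhx1*) were highest of all libraries in those 2 libraries, as were 5 of 15 visceral endoderm genes (*Ttr*, *Apoa1*, *Apoa4*, *Fxyd3* and *Cer1*). None of 9 basement membrane or 10 parietal endoderm genes was. MEFs held these 2 lists at 2300 to 3240 and 289 to 758 CPM, so this count could hardly show a rise in sorted cells. The parietal list summed to 123 to 319 CPM in the 6 OKMS E-CAD+ NG- libraries, 33 to 140 CPM in sorted MKOS and 77.4 to 123 CPM in OKMS E-CAD- cells. The basement membrane list summed to 372 to 721, 331 to 1520 and 555 to 1140 CPM in this order. The 10 further PrE factors summed to 3.22 to 65.6, 16.3 to 110 and 1.39 to 32.7 CPM. The visceral endoderm list summed to 75.4 to 803, 69 to 366 and 49.5 to 162 CPM. Of 8 further PrE factors tested, only *Tbx3* was called between cassettes, higher in MKOS in both NG- gates. Of 14 visceral endoderm genes tested, *Cer1* and *Apoe* were called higher in OKMS in 2NG- cells, and *Cer1* in 3NG- cells. Of all genes, 5.07% and 2.17% were called in these gates. *Hhex*, a homeobox factor of anterior endoderm, was at 0.17, 0 and 13.5 CPM in OKMS E-CAD+ 2NG- cells, so that it was high in replicate 3 alone. *Foxa1*, a paralog of *Foxa2*, was at 0, 0 and 5.5 CPM in OKMS E-CAD+ 2NG- and 0.625, 0 and 4.0 CPM in 3NG- cells. *Hnf4a*, which drives visceral endoderm genes, had at most 0.978 CPM in the 15 sorted OKMS libraries, and *Afp*, a yolk sac protein, was at 0 in 12 of them. Markers of the other tissues that use these factors were mixed. Of endothelium, *Erg* had at most 0.349 CPM in the 15 sorted OKMS libraries, while *Flt1*, a VEGF receptor, had its highest levels of all libraries, 14.8 and 11.9 CPM, in the 2 OKMS E-CAD+ replicate 3 libraries. Of heart, *Nkx2-5* was at 0 in the 15 libraries, while *Isl1* was at 3.53 and 3.74 CPM in those 2 libraries and at 13.5 CPM in E-CAD- 2NG- replicate 3, and *Hand2* reached 12.3 CPM in E-CAD- cells. Over whole lists, 8 endothelial genes summed to 15.4 to 23.3 CPM in the 6 OKMS E-CAD+ NG- libraries and 5.93 to 42.1 CPM in sorted MKOS cells, and 6 cardiac genes to 0.322 to 7.38 and 0.841 to 5.92 CPM. Between cassettes, *Tie1* was the 1 endothelial gene called in each NG- gate, at 26.2 and 13.9 CPM in MKOS and 0.141 and 0 CPM in OKMS. Of 6 trophoblast genes, which include *Eomes*, 1 (*Eomes*) was called in the 2NG- gate. The trophoblast list summed to 51 to 110 CPM in the 6 OKMS E-CAD+ NG- libraries and 6.47 to 51.5 CPM in sorted MKOS cells. It summed to 7.1 to 40.3 CPM in OKMS E-CAD- cells and 6.8 to 54.6 CPM in iPSCs and ESCs. Since PrE, visceral endoderm and definitive endoderm share *Foxa2*, *Sox17* and *Cer1*, the OKMS E-CAD+ libraries are described by their genes, and the identity of their cells was not tested.

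*Gata4* was low and widespread, with a read in 41 of 48 libraries and a median of 1.86 CPM. It was at 7.61 and 2.29 CPM in OKMS MEFs, 3.79 and 3.77 CPM in MKOS MEFs, 0.677 to 5.41 CPM in MKOS E-CAD+ 2NG- and 1.52 to 5.38 CPM in OKMS E-CAD- 2NG- cells, and neighbors in the order of its condition means overlapped from the first to the seventh. In the 4 E14 and TNG ESC libraries it had at most 0.788 CPM, and in the TNG OKMS ESCs it was at 3.19 and 0.219 CPM. As OKMS cells gained *Nanog*-GFP it went from 10.5 ± 10.1 CPM (SD, n = 3) in E-CAD+ 3NG- to 0.628 CPM in 3NG+ cells, without overlap, a log2 change of -3.58 ± 1.35. This was not called by edgeR (FDR = 0.104) and was called by DESeq2 (FDR = 0.0364). In MKOS the means were 1.74 and 1.86 CPM, and the difference between the routes was a log2 value of 3.84 that was not called (FDR = 0.641).

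From 3NG- to 3NG+ cells edgeR called 0 of 7 genes in either route, when 1.58% of all genes were called in MKOS and 6.26% in OKMS. At an unadjusted p under 0.05 there was 1 gene in each, and DESeq2 called 0 in MKOS and 1 in OKMS. The difference between routes could be estimated for 4 genes, *Sox17*, *Sox7* and *Foxa2* having groups without reads. Of these, 0 were called by either tool and 1 had an unadjusted p under 0.05, when 0.0256% of all genes were called. *Dab2* was lower in every MKOS 3NG+ library than in every 3NG- library, from 11.2 ± 3.64 to 2.75 CPM, but the log2 change of -1.93 ± 0.85 was not called (FDR = 0.254). The epiblast genes of a list of 8 meanwhile were called higher for 5 genes in OKMS, among them *Zfp42*, *Esrrb* and *Klf2*.

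*Dab2* stood out again in iPSCs. In MKOS iPSCs without doxycycline it was at 1.97 and 38.0 CPM, and in 2i medium at 1.08 and 0 CPM. This was the 1 of 7 genes called lower in 2i, when 1.08% of all genes were, with a log2 change of -5.23 ± 1.30 (edgeR FDR = 0.0216). Without replicate 2 of the cells without doxycycline the change was -1.88 (FDR = 0.725), and the call was also lost without either 2i library (FDR = 0.0759 and 0.193) and in a fit to these conditions alone (FDR = 0.114). In OKMS iPSCs *Dab2* was at 1.86 and 4.63 CPM without doxycycline and at 0 in both 2i libraries, at least 6.15-fold lower. edgeR called 0 of 7 genes there (*Dab2* FDR = 0.125), with 1 at an unadjusted p under 0.05, and DESeq2 called *Dab2* (FDR = 0.0174), when 0.505% of all genes were called. The difference between the 2i changes was called for 0 of the 6 genes with reads by either tool, DESeq2 giving no FDR to 3, with 1 (*Sox7*) at an unadjusted p under 0.05, when 0.00640% of all genes were called.

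A part of the ERK response genes was lower in 2i. Of 17 genes of FGF and PDGF signalling, 3 were called lower and 1 higher in MKOS iPSCs in 2i, and 2 lower in OKMS iPSCs, with list medians of -0.69 and -0.20 beside 0 for all genes. *Spry4*, an inhibitor induced by ERK, was at least 51.0-fold lower in MKOS, and its log2 change in OKMS was -7.23 ± 0.85. *Dusp6*, an ERK phosphatase that ERK induces, changed by -3.33 ± 0.48 in MKOS and -3.96 ± 0.48 in OKMS, and *Etv4*, an ETS factor, by -3.06 ± 0.82 in MKOS. *Pdgfa*, a ligand of the *Pdgfra* receptor, changed by 2.39 ± 0.55 in MKOS. *Etv5*, another ETS factor, was at 185 and 159 CPM without doxycycline and 131 and 187 CPM in 2i in MKOS. *Pdgfra* itself was at most at 2.31 CPM in the 18 iPSC and ESC libraries.

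MKOS iPSC -dox replicate 2, the library with the high *Dab2*, was set beside the 17 other iPSC and ESC libraries, a comparison chosen after its values were seen. *Dab2* at 38.0 CPM compared with a highest other value of 7.88 and a median of 1.08 CPM. *Cubn*, the cubilin receptor that *Dab2* serves, was at 17.9 CPM against at most 1.49, and *Amn*, which brings cubilin to the membrane, at 3.19 against at most 1.66 CPM. The basement membrane collagens *Col4a1* (26.1 against at most 21.4 CPM) and *Col4a2* (17.0 against at most 9.98 CPM) and the visceral endoderm protein *Ttr* (1.77 against at most 0.796 CPM) were also highest there, as was *Pdgfra* (2.31 against at most 1.76 CPM). Of the lists, 2 of 9 basement membrane, 3 of 15 visceral endoderm, 1 of 10 parietal endoderm and 1 of 10 further PrE factor genes were highest in that library, and so were the fibroblast gene *Dcn* and the endothelial gene *Tie1*. The share of all genes highest there was not counted. *Nid1* (27.7 CPM), *Nid2* (105 CPM) and *Apoe* (500 CPM) were under the medians of the other libraries (35.3, 143 and 654 CPM). *Gata4* at 4.61, *Gata6* at 4.08 and *Sox7* at 2.13 CPM were high but not highest, and *Foxa2* and *Sox17* had no read. The combination was thus unlike that of the OKMS E-CAD+ replicate 3 libraries, which held *Foxa2* and *Sox17* and no *Sox7*.

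**Figure D4:**
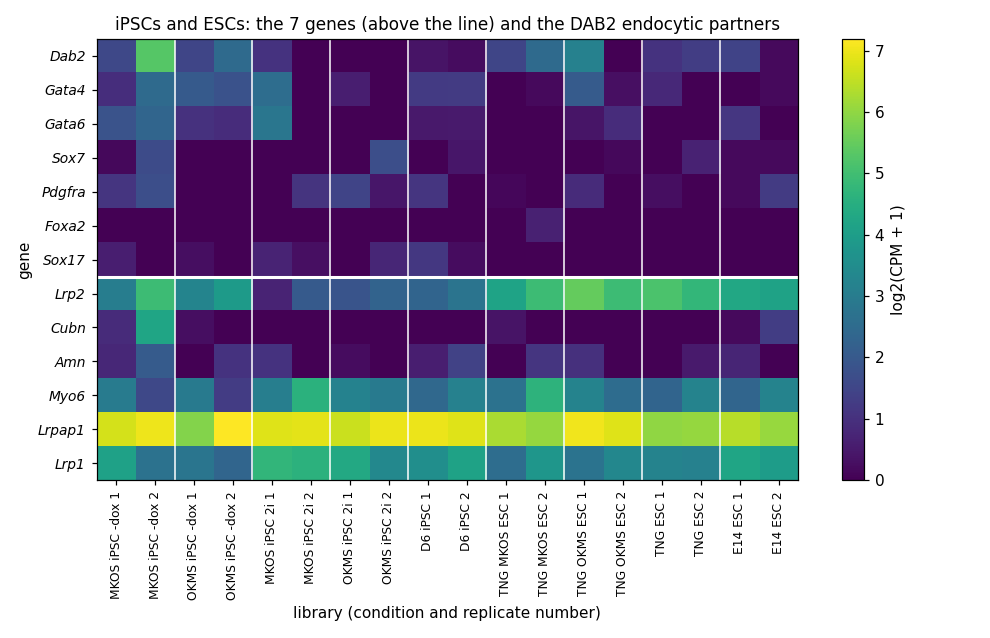
Heat map of the 7 PrE genes (rows above the line) and 6 endocytic partners of *Dab2* (rows below) in the 18 iPSC and ESC libraries (columns), colored by log2(CPM + 1). In MKOS iPSC -dox replicate 2, *Dab2* at 38.0 CPM and *Cubn* at 17.9 CPM lie above the 17 others, whose highest values are 7.88 and 1.49 CPM.

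From 3NG+ cells to iPSCs without doxycycline 0 of 7 genes were called in MKOS, when 2.14% of all genes were, with 2 at an unadjusted p under 0.05, and 0 in OKMS, when 0.614% were, with 1. From iPSCs to the ESCs with the same cassette 0 were called in MKOS, when 0.307% of all genes were, with 3 at an unadjusted p under 0.05, and 0 in OKMS, when 0.608% were, with 0. DESeq2 called 0 in each of these comparisons, but gave no FDR to 2, 3, 2 and 5 of the 7 genes in this order. Among the changes that were not called were those of *Dab2* into MKOS iPSCs (log2 change of 2.89 ± 0.92, FDR = 0.0942) and *Gata6* from MKOS iPSCs, at 2.59 and 4.08 CPM, to TNG MKOS ESCs, where it had no read (at least 9.15-fold lower, FDR = 0.516). *Dab2* into MKOS iPSCs became -0.45 without iPSC replicate 2. *Pdgfra* was at 2.55 CPM in OKMS 3NG+ cells and had no read in OKMS iPSCs without doxycycline (at least 4.43-fold lower, FDR = 0.32).

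*Sox7* was the rarest of the 7. It had 64 reads in all, 15 libraries with a read and 8 with at least 3, and its highest level was 2.28 CPM in OKMS iPSC 2i replicate 2. OKMS E-CAD- 2NG- cells, MKOS iPSCs without doxycycline and MKOS MEFs had 0.967, 1.12 and 0.665 CPM on average, and all its condition ranges overlapped from rank to rank among the first 4.

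Partners of the 7 genes were counted from lists of pathway genes. From MEFs to 2NG- cells (MKOS, OKMS E-CAD- and OKMS E-CAD+ in this order), 15.0%, 11.7% and 15.7% of all genes were called higher and 12.0%, 10.1% and 13.5% lower, and the counts of short lists are to be read against these shares. Of the 17 FGF and PDGF genes 3, 2 and 2 were called higher and 5, 5 and 2 lower. *Fgf4*, the epiblast ligand, was called higher in each, from 0 to 22.7 CPM in MKOS and from 0.115 to 3.55 and 10.1 CPM in OKMS. *Pdgfc*, another ligand of *Pdgfra*, was called lower in each, by log2 changes of -2.75 ± 0.66, -3.05 ± 0.68 and -3.35 ± 0.69. Of 6 endocytic partners of *Dab2*, 1, 1 and 2 were higher and 2, 1 and 1 lower. *Lrp1*, an endocytic receptor, was lower in each, while *Lrp2*, which encodes megalin, fell in MKOS (log2 change of -3.16 ± 1.02) and rose in OKMS (4.01 ± 1.24 and 3.61 ± 1.23). The difference between the MKOS and OKMS E-CAD+ changes of *Lrp2* was called (FDR = 0.0163), when 1.35% of all genes were. Within the E-CAD+ 2NG- gate 0 of the 6 partners, *Lrp2* among them, were called between cassettes, when 5.07% of all genes were. The difference of the changes also holds the levels in MKOS and OKMS MEFs, which were not compared by a test. Of 3 GATA cofactors, *Lmcd1* was lower in each comparison from MEFs to 2NG- cells, and *Zfpm2* also toward OKMS E-CAD+ cells.

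Of 9 basement membrane genes, 1 was higher in each of these comparisons, near the 11.7% to 15.7% of all genes, and 3, 4 and 6 were lower, where 10.1% to 13.5% of all genes were. The gene that rose was *Lama1*, a laminin chain made by PrE, with log2 changes of 3.77 ± 0.83, 4.15 ± 0.81 and 2.92 ± 0.77, whereas *Sparc*, which MEFs hold at a high level, fell by 1.75, 2.45 and 3.43 on the log2 scale. Of the 10 parietal endoderm genes 5 were lower in each, *Plat* and *Snai1* among them, and 1, 0 and 0 higher, beside the same shares. Of the 15 visceral endoderm genes 14 were tested, and 1, 2 and 4 were higher, with *Lefty1* in each, and 2, 0 and 1 lower. Of the further PrE transcription factors 8 of 10 were tested. *Prdm1* was called higher toward both E-CAD+ populations (log2 changes of 3.80 ± 1.18 and 3.26 ± 1.04), and *Tbx3* was called lower in both OKMS comparisons (-3.22 ± 0.56 and -2.32 ± 0.51). Epiblast genes were called higher for 7, 5 and 6 of 8 and lower for 0, 1 and 0, and *Nanog*, the antagonist of *Gata6*, went from 0 to 26.8, 12.8 and 37.9 CPM.

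The genes most like each of the 7 over the 20 condition means, among genes of at least 1 CPM on average, described the same division, with no test. For *Pdgfra* they were *Tspan11* (r = 0.99), *Ptgfr* (0.98) and *Fap* (0.98), for *Dab2* *Egfr* (0.95), *Ssr4* (0.94) and *Ssbp3* (0.94), and for *Gata6* *Sertad1* (0.90), *Flnc* (0.90) and *Ildr2* (0.89). For *Foxa2* they were *Tmprss2* (0.96), *Samd3* (0.93) and *Cer1* (0.92), and for *Sox17* *T* (0.94), *Samd3* (0.90) and *Tmprss2* (0.90). *Gata4* was followed by *Zfp869* (0.81), *Tmcc3* (0.79) and *Nes* (0.78), and *Sox7* by *Napb* (0.70), *AU019823* (0.65) and *Dll3* (0.61).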

How the data were processed

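The deposited counts are raw reads per transcript that the authors made with the STRT pipeline, in which reads with several positions went to the most 5′ exonic one. No normalization was applied. The submitters' processing notes name Bowtie 0.12.7 and mm10, whereas the methods name mm9, and the positions matched GRCm38. CPM was computed over all transcript rows. Libraries took their condition from the labels. Counts of all 48 libraries were fitted with edgeR 4.0.16 in R 4.3.3 (TMM, default filter by condition, 1 coefficient for each of 20 conditions, quasi-likelihood test, common dispersion 0.217), and an FDR of at most 0.05 over 15630 genes was called. Fits without 1 library kept the genes and trended dispersion of the full fit. The test was tried on simulated counts. DESeq2 1.42.0 (Wald test), its size factors, no filter, the compared conditions alone, the replicate number as a block, and fits without the 7 sorted libraries outside the authors' averages were tried. Replicates differed by more than sampling noise. The D6 line entered no comparison. The 7 genes, the lists and the tests were chosen with earlier results of these data known. The named genes are the 7, the 3 genes most like each, up to 4 called genes per list by size of change, and the paralogs, ligands and *Nanog* that stand beside a member, and the others, with the single-library comparison in MKOS iPSCs, were chosen after their values were seen.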

Additional observations from a re-analysis of the deposited data

Results flagged for a closer look

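D6, the iPSC line with a *piggyBac* MKOS integration, entered no comparison, and 2 of the 7 genes were read there above every E14 and TNG ESC library. *Gata4* was at 1.35 and 1.40 CPM (mean 1.37) in D6, against at most 0.788 CPM in the 4 E14 and TNG ESC libraries. *Sox17* was at 1.24 and 0.175 CPM (mean 0.709) in D6 and had no read in those 4 libraries. Other iPSCs had as much *Gata4*, with 0.933 to 4.61 CPM in the 4 iPSC -dox libraries and up to 4.97 CPM in 2i. Of the ESCs with a cassette, TNG OKMS had 3.19 and 0.219 CPM and TNG MKOS at most 0.145 CPM. Both values of *Gata4* in D6 thus lie above the 4 E14 and TNG values but not above every ESC library. The lower value of *Sox17* in D6 is below the level of 3 reads. No test was made of these 2 libraries.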

How the results depend on the processing

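Of 114 counts of called PrE genes under settings other than leaving out 1 library, 97 stayed within 1.5 times the main count. Without a filter on low counts the number called became 4 from OKMS MEF to E-CAD+ 2NG- (2 in the main fit), 3 from MKOS iPSC to ESC, 2 each for the cassettes in 2NG- and in 3NG- cells, OKMS 3NG- to 3NG+ and OKMS 2i, and 1 each for E-CAD- to E-CAD+ 3NG-, MKOS 3NG- to 3NG+, both 3NG+ to iPSC comparisons and the 2i difference between cassettes (0 in the main fit). DESeq2's Wald test called 1 from OKMS MEF to E-CAD- 2NG- (2 in the main fit) and 1 each for OKMS 3NG- to 3NG+ and OKMS 2i (0). A fit to the compared conditions alone called 0 for MKOS 2i (1). With the replicate number as a block, 1 was called from OKMS MEF to E-CAD+ 2NG- (2), since *Dab2* had an FDR of 0.0591, and 1 for the cassettes in 3NG- cells (0), *Foxa2* at -9.47 with an FDR of 0.0472. The block is not a pairing by design, because only 27 of 84 same-number pairs correlated above 0.1 (mean 0.0939, -0.0511 to 0.414). Leaving out each library in turn gave 1 to 3 calls for MKOS MEF to 2NG-, 0 to 2 and 1 to 2 for OKMS MEF to E-CAD- and E-CAD+ 2NG-, and 0 to 1 for MKOS 3NG+ to iPSC (1 without iPSC -dox replicate 1) and MKOS 2i. Directions turned for *Foxa2* between OKMS E-CAD- and E-CAD+ 2NG- cells (-2.86 to 8.23 over the libraries left out, the lowest without E-CAD+ 2NG- replicate 3) and for *Dab2* from MKOS 3NG+ to iPSC (-0.45 to 4.07) and iPSC to ESC (-3.65 to 0.64), both turning without iPSC -dox replicate 2. Where a left-out library held the only reads of a gene (*Foxa2* and *Sox17* in the OKMS 2NG- comparisons, *Sox7* in MKOS MEFs), no fold could be had. The cause of the other changes was not tested. At 3 reads the floor of up to 2.1 CPM limits what can be said of *Sox7*, *Foxa2* and *Sox17*.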
